A study of Mus musculus with 12 samples.

Results

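The genes described here encode the nuclear subunits of the mitochondrial respiratory chain and ATP synthase, with the electron carrier cytochrome c. Members were chosen by name: every probe set whose single gene symbol in the platform annotation begins with Nduf and a subunit letter and number, is Sdha, Sdhb, Sdhc or Sdhd, begins with Uqcr, with Cox and a number from 4 to 8 or with Atp5, or is Cycs. This gave 168 of 45101 probe sets on the array, for 82 genes: 35 of complex I, 4 of complex II, 8 of complex III, 17 of complex IV, 17 of complex V and Cycs. No measured value was used in the choice. Of the 82 genes, 80 passed the filter on dim probe sets and were tested among 13732 genes; Cox7b2 and Ndufb4 did not pass it.

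The study hybridized RNA of sorted mouse bone marrow cells to 12 Affymetrix Mouse Genome 430 2.0 arrays, with 4 groups of 3. FoxO-deficient myeloid progenitors (arrays 10 to 12) and FoxO-deficient LSK cells (arrays 4 to 6) came from Mx-Cre+; FoxO1/O3/O4 LoxP/LoxP mice, and WT myeloid progenitors (arrays 7 to 9) and WT LSK cells (arrays 1 to 3) came from Mx-Cre-; FoxO1/O3/O4 LoxP/LoxP mice. Every group therefore carries the floxed alleles, and only the deficient groups carry Mx-Cre, a transgene in which an interferon-inducible promoter drives Cre in blood cells and in other tissues. What is called a FoxO effect below cannot be told apart from an effect of that transgene. LSK cells are the lineage-negative, Sca-1-positive, Kit-positive fraction that holds the hematopoietic stem cells (HSCs), and myeloid progenitors are their more restricted descendants. The cells came from pooled mice, and the labelling was done in triplicate; no label says whether arrays of 1 group stem from different pools of mice, so the p-values rest on array-to-array spread that may be technical. The study asked, per its labels, about genes of reactive oxygen species metabolism after loss of the 3 FoxO factors, and the respiratory chain is a main source of such species in the cell.

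Electrons from NADH enter the chain at complex I and those from succinate at complex II, pass through complex III and cytochrome c, and reach oxygen at complex IV. Complexes I, III and IV pump protons across the inner mitochondrial membrane, and complex V, the ATP synthase, uses their return flow to make ATP. A few subunits are encoded by mitochondrial DNA and were not analysed here. HSCs are known for low mitochondrial activity and reliance on glycolysis, and FoxO factors are known for inducing antioxidant enzymes in them.

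WT LSK array 2 stood apart in RNA quality, with a ratio of 3′ to 5′ signal of 344 for Gapdh and 144.6 for Actb, where the Gapdh ratio of the other 11 arrays ran from 1.77 to 2.37 and their Actb ratio from 2.74 to 3.36. The median SD of the members across the arrays of a group was 0.0979 in FoxO-deficient myeloid progenitors, 0.0868 in WT myeloid progenitors, 0.112 in FoxO-deficient LSK cells and 0.337 in WT LSK cells, on the log2 scale. The counts of called members, over all and by complex, are therefore given with and without array 2. So are the changes of called members that it moved by over 1.5 times. Foxo4 read 59.1 to 61.3 in FoxO-deficient myeloid progenitors against 309.1 to 349.8 in WT myeloid progenitors, and 67.2 to 100.2 in FoxO-deficient LSK cells against 347.3 to 478.7 in WT LSK cells, so all deficient arrays lay below all WT arrays of their cell type. Of 9 HSC markers, 8 were lower in WT myeloid progenitors than in WT LSK cells, and Kit was not called. Without array 2 all 9 were called lower. Of the other markers, 6 of 7 of the erythroid, 6 of 7 of the granulocyte-monocyte and 4 of 4 of the basophil and mast cell list were higher. Without array 2 these counts were the same, and 1 granulocyte-monocyte gene was lower. The B cell gene Cd79a exceeded the background limit on 2 of 12 arrays and the T cell genes Cd3e and Cd3g on 3 each. The third gene of the T and NK cell list, Nkg7, exceeded it on all 12 and was higher in myeloid progenitors, averaging 2403 in FoxO-deficient and 1703 in WT myeloid progenitors, and 954 in FoxO-deficient and 493 in WT LSK cells. In sorted bulk cells, fewer cells of a type and less RNA per cell cannot be told apart.

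Promoters are shown because part of the members, given below, were higher in myeloid progenitors than in LSK cells in both genotypes. RefSeq promoters of build GRCm38.p6, each 300 bases from 250 before the start to 50 after it, were matched by symbol for 67 of the 82 genes, which gave 72 promoters beside 32851 in all. Exact matches to 7 motifs were counted on both strands. The motif of NRF1, a factor known for binding promoters of respiratory genes, was searched as the core CGCATGCG and in a longer form, which is that core with a G before it and a C after it. The core was found in 12.5% of member promoters against 1.87% of all; it was added after the Cycs promoter had been read. The longer form, which overlaps it, was found in 5.56% of member promoters against 0.971% of all. The ETS motif CCGGAAG, bound by the GABP factor among others, stood in 23.6% against 8.86%, and the YY1 motif AAGATGGC in 12.5% against 2.75%. Sp1 sites (GGGCGG) stood in 41.7% against 35.7%, and CCAAT boxes (CCAAT) in 41.7% against 37.4%. The FoxO motif GTAAACA was found in 1.39% of member promoters against 3.65% of all, in the promoter of Cox7a2. These matches are descriptions of letters in a window and show no binding.

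The 250 bases before the start of 5 members are printed 5′ to 3′ on the gene's own strand, which is the minus strand for all 5. They were chosen after their matches had been seen, as examples of the NRF1 core (Cycs), the ETS motif on either strand (Uqcr11 and, as its reverse complement, Sdhd), the longer NRF1 motif (Atp5k) and the FoxO motif (Cox7a2). Capitals mark those matches.
Cycs (chr6:50566570-50566819): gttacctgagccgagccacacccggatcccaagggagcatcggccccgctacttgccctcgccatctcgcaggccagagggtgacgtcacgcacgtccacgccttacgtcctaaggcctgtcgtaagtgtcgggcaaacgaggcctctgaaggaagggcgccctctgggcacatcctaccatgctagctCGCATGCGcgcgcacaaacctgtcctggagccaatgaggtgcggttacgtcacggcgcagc
Uqcr11 (chr10:80406822-80407071): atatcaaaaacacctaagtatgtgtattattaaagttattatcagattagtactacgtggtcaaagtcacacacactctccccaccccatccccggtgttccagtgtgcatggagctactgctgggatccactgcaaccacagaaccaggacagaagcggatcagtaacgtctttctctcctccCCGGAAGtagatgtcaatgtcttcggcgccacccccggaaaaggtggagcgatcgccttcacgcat
Sdhd (chr9:50603850-50604099): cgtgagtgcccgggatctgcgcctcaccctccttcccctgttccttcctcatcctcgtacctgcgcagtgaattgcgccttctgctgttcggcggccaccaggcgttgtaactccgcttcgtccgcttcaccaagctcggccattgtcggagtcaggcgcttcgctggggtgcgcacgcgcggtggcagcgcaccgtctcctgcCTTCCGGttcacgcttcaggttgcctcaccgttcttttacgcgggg
Atp5k (chr5:108434400-108434649): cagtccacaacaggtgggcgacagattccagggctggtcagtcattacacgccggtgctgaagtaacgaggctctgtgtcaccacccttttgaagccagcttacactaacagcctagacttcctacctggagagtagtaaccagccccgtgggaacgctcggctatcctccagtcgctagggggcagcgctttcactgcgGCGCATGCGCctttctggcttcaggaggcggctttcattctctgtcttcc
Cox7a2 (chr9:79759854-79760103): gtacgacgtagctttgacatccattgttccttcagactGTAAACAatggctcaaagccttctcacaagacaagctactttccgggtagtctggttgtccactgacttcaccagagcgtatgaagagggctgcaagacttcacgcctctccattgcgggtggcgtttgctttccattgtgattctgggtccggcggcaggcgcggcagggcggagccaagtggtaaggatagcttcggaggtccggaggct
The NRF1 core begins 61 bases before the start in Cycs, the ETS motif 66 before it in Uqcr11 and 46 before it in Sdhd, and the longer NRF1 motif 50 before it in Atp5k. In Cox7a2 the FoxO motif begins 212 bases before the start.

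Subunit genes of all 5 complexes, and cytochrome c, were higher in myeloid progenitors than in LSK cells in both genotypes. In WT cells 30 of 80 members were higher and 1 was lower in myeloid progenitors (limma, adjusted p under 0.05), where 9.95% of all 13732 genes were called higher and 11.5% lower (21.4% in either direction). In FoxO-deficient cells 21 members were higher and none was lower, where 10.2% of all genes were called higher and 9.39% lower (19.6% in either direction). The change was above 0 for 72 of the 80 members in deficient cells and for 70 in WT cells. The median log2 change of the members was 0.36 in FoxO-deficient cells (all genes 0.11) and 0.47 in WT cells (all genes 0.02). The 18 genes called higher in both genotypes are 85.7% of the FoxO-deficient list and 60% of the WT list. All 3 myeloid progenitor arrays lay above all 3 LSK arrays for 56 members (70%) in deficient cells, where 30% of all genes did so, and for 45 members (56.2%) in WT cells, where 18.2% did so. They lay below for Atp5g2 and Cox7a2l (2.5%, where 22.4% of all genes did so) in deficient cells and for Cox8b (1.25%, where 17.6% did so) in WT cells.

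Both comparisons were computed in 1 fit over the 12 arrays, and the number of calls depends on the arrays in it. Without WT LSK array 2, 50 members were higher and 2 lower in WT myeloid progenitors (18.4% and 16.6% of all genes), and 47 were higher and 1 lower in deficient ones (22.3% and 16.1%), with all of the calls made on 12 arrays among them. Without array 2 the members higher in deficient cells were 21 of complex I, 4 of II, 5 of III, 7 of IV and 9 of V. In WT cells they were 21, 4, 6, 7 and 11 in that order. Cycs was higher in both, and the members called lower were of complex IV. Leaving out WT myeloid progenitor array 7, 8 or 9 left 15, 14 or 17 members called in the WT comparison. In the deficient comparison 7 were called without FoxO-deficient LSK array 4, 8 without array 6, and 10, 10 and 11 without FoxO-deficient myeloid progenitor arrays 10, 11 and 12. For the fits without these arrays the shares of all genes called are not given, so their counts are not set against all genes. Of the calls made on 12 arrays, 1 of 31 in WT cells (Uqcr11) and 5 of 21 in deficient cells (Cox5a, Ndufs1, Ndufs5, Uqcr11 and Uqcrc1) passed under every other setting in which the gene was tested, and none changed direction under any.

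**Figure D1:**
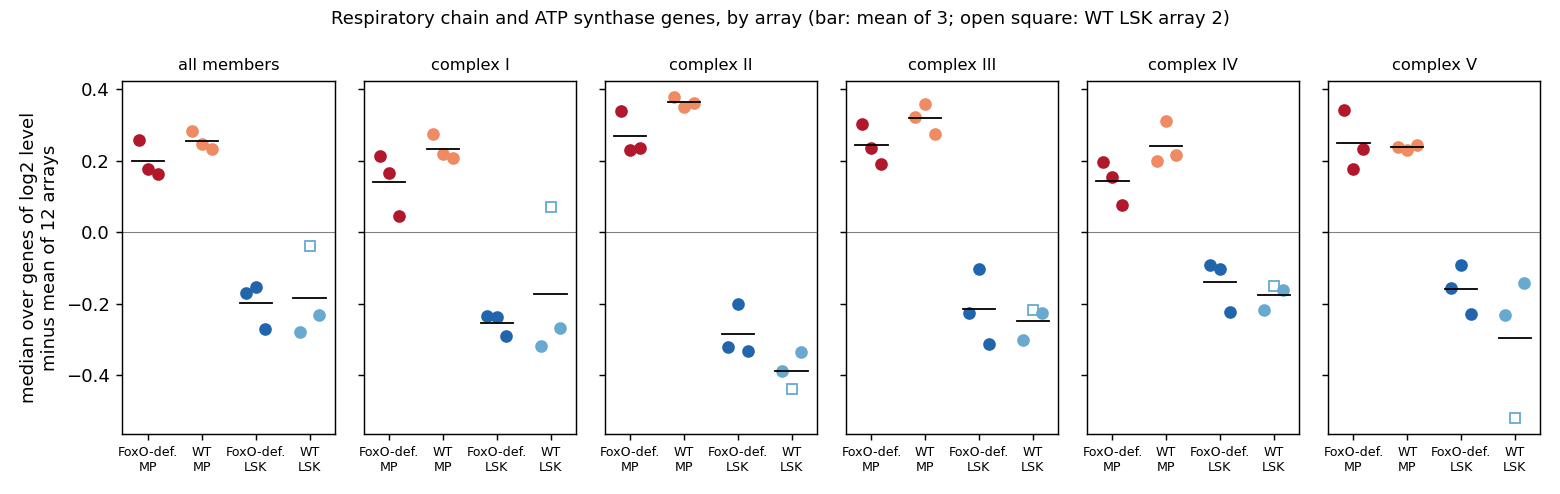
Median over the tested genes of the log2 level minus each gene's mean of 12 arrays, for all 80 members and by complex, 1 point per array, with the mean of 3 as a bar. Over all members the FoxO-deficient myeloid progenitor arrays lay between 0.16 and 0.26, the WT myeloid progenitor arrays between 0.23 and 0.28, the FoxO-deficient LSK arrays between -0.27 and -0.15 and the WT LSK arrays between -0.28 and -0.04, where the highest is array 2 (open square).

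**Figure D2:**
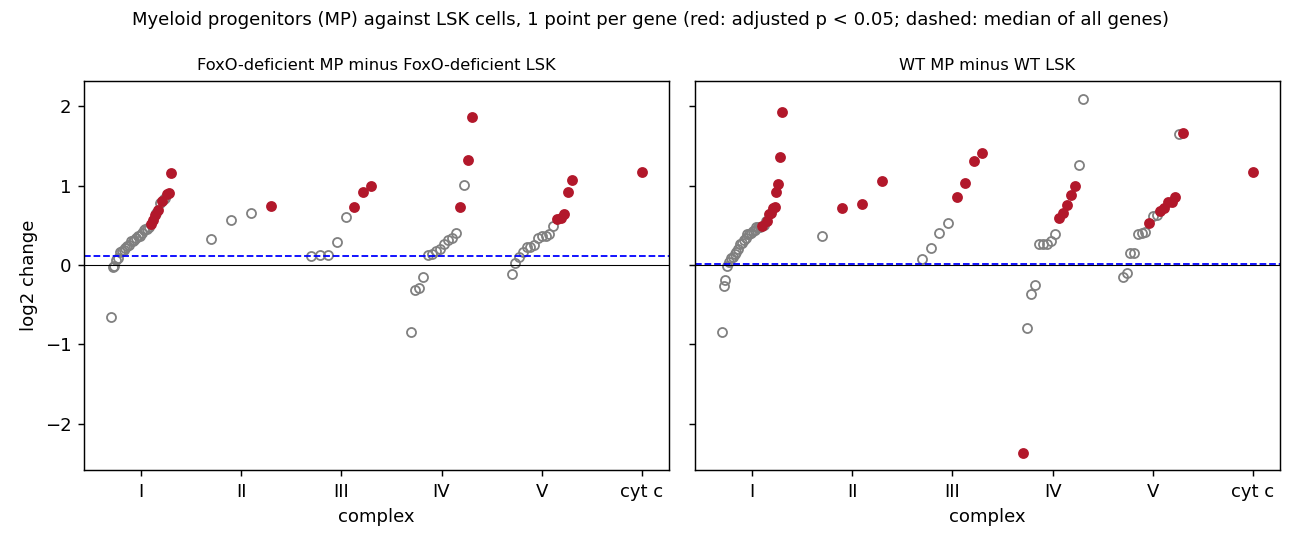
Log2 change of each member between myeloid progenitors and LSK cells by complex, in FoxO-deficient cells on the left and in WT cells on the right; red points passed the test and the dashed line is the median of all genes (0.11 and 0.02). Most points of each complex lie above 0 in both panels.

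Complex I, the NADH dehydrogenase, had 8 of its 34 tested genes higher in FoxO-deficient myeloid progenitors than in FoxO-deficient LSK cells, and 10 of 34 higher in WT myeloid progenitors than in WT LSK cells. Ndufa5, Ndufa9, Ndufb2, Ndufb7, Ndufs1 and Ndufs5 were called in both genotypes. Ndufs1, on chromosome 1, encodes the largest core subunit, which holds iron-sulfur clusters of the electron path. It read 341, 361 and 373 in FoxO-deficient myeloid progenitors, 365, 343 and 351 in WT myeloid progenitors, 182, 183 and 206 in FoxO-deficient LSK cells and 212, 290.5 and 162 in WT LSK cells. The groups of the 2 cell types do not overlap in either genotype, and the 290.5 is array 2. The log2 change was 0.91 ± 0.20 in deficient cells (SE, n = 3 each; limma, adjusted p = 0.0106) and 0.71 ± 0.20 in WT cells (adjusted p = 0.0314).

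Ndufs5, an accessory subunit gene on chromosome 4, had the largest log2 change of complex I in deficient cells, 1.15 ± 0.25 (adjusted p = 0.00960), and changed by 1.35 ± 0.25 in WT cells (adjusted p = 0.00411). Its values were 244, 244 and 228 in FoxO-deficient myeloid progenitors, 213, 146 and 125 in WT myeloid progenitors, 120, 88.7 and 116 in FoxO-deficient LSK cells and 48.8, 80.8 and 58.9 in WT LSK cells. The 4 groups do not overlap for this gene.

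Of the other accessory subunits, Ndufa9 changed by 0.89 and 1.01, Ndufa5 by 0.69 and 0.72, Ndufb2 by 0.63 and 0.64, and Ndufb7 by 0.56 and 0.56 on the log2 scale, in deficient and WT cells in that order. For Ndufb2, 1 of the 2 other kept probe sets had the opposite sign in deficient cells (-0.18). Ndufb3 (0.81) and the core subunit gene Ndufv2 (0.51) were called in deficient cells, where the WT values were 0.40 (adjusted p = 0.171) and 0.43 (adjusted p = 0.0634). Ndufa8 (0.49), Ndufa10 (0.65), Ndufb10 (0.92) and Ndufb1 (1.92) were called in WT cells. None of these genes was called for a difference between the genotypes. Without array 2 the WT changes of Ndufa9 and Ndufb10 were 0.67 and 0.55. Ndufb3 (0.61) and Ndufv2 (0.54) were then called in WT cells too. In deficient cells Ndufa8 (0.45), Ndufa10 (0.45) and Ndufb10 (0.77) were then called too. Ndufb1 exceeded the background limit on 2 of the 3 WT LSK arrays, since array 2 read 4.38.

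The remaining core subunits of complex I did not pass the test in either genotype. Ndufs3 changed by 0.31 in deficient and 0.47 in WT cells, Ndufv1 by 0.37 and 0.27, Ndufs7 by 0.40 and -0.02 and Ndufs8 by 0.19 and -0.26. For 3 of these genes array 2 lay far above the other WT LSK arrays: Ndufs8 read 381, 1341 and 333, Ndufs7 808, 2587 and 764, and Ndufv1 411, 926 and 455. Without array 2, Ndufs7 (0.55) and Ndufv1 (0.63) passed the test in WT cells, and Ndufs3 (0.30) and Ndufs7 (0.39) in deficient cells. Ndufb11 and Ndufc2 gave the highest mean intensities of complex I. They changed by -0.01 and 0.22 in deficient cells and by -0.20 and 0.09 in WT cells, none of them called. Without array 2, Ndufc2 was called in deficient cells (0.21).

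Complex II, succinate dehydrogenase, is also an enzyme of the citric acid cycle and has 4 genes, all with changes above 0 in both genotypes. In WT myeloid progenitors 3 of the 4 were higher than in WT LSK cells, and in FoxO-deficient myeloid progenitors 1 of the 4 was higher. Sdhd, one of the 2 membrane anchors, on chromosome 9, was called in both. It read 885, 952 and 858 in FoxO-deficient myeloid progenitors, 948, 986 and 887 in WT myeloid progenitors, 512, 576 and 524 in FoxO-deficient LSK cells and 437, 363 and 573 in WT LSK cells. All 6 myeloid progenitor arrays lay above all 6 LSK arrays (log2 change 0.74 ± 0.18, adjusted p = 0.0160 in deficient cells; 1.06 ± 0.18, adjusted p = 0.00248 in WT cells).

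Sdhc, the other anchor, and Sdhb, the iron-sulfur subunit, were called in WT cells (0.77 and 0.71). Without array 2 the WT change of Sdhc was 0.47, and Sdhc (0.55) and Sdhb (0.32) were called in deficient cells too. Sdha, the flavoprotein that oxidises succinate, changed by 0.66 in deficient cells (adjusted p = 0.0852) and by 0.36 in WT cells (adjusted p = 0.332). Its WT LSK arrays read 1178, 2026 and 1019, the highest being array 2. Without that array Sdha passed the test in both genotypes (0.64 in each).

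Complex III, the cytochrome bc1 complex, had 3 of 8 genes higher in FoxO-deficient and 4 of 8 higher in WT myeloid progenitors, and all 8 changes were above 0 in each genotype. Uqcr11, a small accessory subunit gene on chromosome 10, read 221, 212 and 181 in FoxO-deficient myeloid progenitors, 295, 254 and 233 in WT myeloid progenitors, 108, 105 and 111 in FoxO-deficient LSK cells and 79.8, 116 and 100.4 in WT LSK cells. It had the smallest adjusted p of the members in the WT comparison (log2 change 1.41 ± 0.18, adjusted p = 0.000481) and changed by 0.91 ± 0.18 in deficient cells (adjusted p = 0.00561). This was the only member called in both genotypes under all 21 other settings tried.

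Uqcrc1, a core protein of complex III on chromosome 9, read 136, 114 and 126 in FoxO-deficient myeloid progenitors, 125, 153 and 165 in WT myeloid progenitors, 66.7, 53.2 and 68.9 in FoxO-deficient LSK cells and 55, 93.1 and 72.1 in WT LSK cells. Its log2 change was 1.00 ± 0.22 in deficient cells (adjusted p = 0.0102) and 1.03 ± 0.22 in WT cells (adjusted p = 0.00842). Uqcrq, which encodes a ubiquinone-binding subunit, changed by 0.73 and 1.31, and Uqcr10 by 0.86 in WT cells. For Uqcrq, 1 of the 2 other kept probe sets had the opposite sign in deficient cells (-0.47). The Rieske iron-sulfur protein gene Uqcrfs1 changed by 0.29 and 0.40, and neither value was called. Without array 2, Uqcrfs1 was called in both genotypes (0.29 and 0.48), and Uqcr10 in deficient cells too (0.60). The 2 genes with the highest mean intensities of complex III, Uqcrc2 (0.11 and 0.07) and Uqcrb (0.13 and 0.21), had overlapping cell types in both genotypes. In WT cells the overlap came from array 2 alone, at 3681 for Uqcrc2 and 2311 for Uqcrb. Without it Uqcrc2 was called in WT cells (0.35).

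Cytochrome c, the product of Cycs on chromosome 6, carries electrons from complex III to complex IV and is also released from mitochondria in apoptosis. Cycs read 1919, 1694 and 2127 in FoxO-deficient myeloid progenitors, 1741, 1405 and 1658 in WT myeloid progenitors, 909, 862 and 773 in FoxO-deficient LSK cells and 669, 817 and 655 in WT LSK cells. All 6 myeloid progenitor arrays were above all 6 LSK arrays. Its change was 1.17 ± 0.17 in deficient cells (2.25-fold; adjusted p = 0.000951) and 1.17 ± 0.17 in WT cells (2.25-fold; adjusted p = 0.000974). The other 3 kept probe sets of Cycs changed in the same direction, by 0.63 to 1.16 in deficient and 0.70 to 1.21 in WT cells.

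Complex IV, cytochrome c oxidase, had 3 of 16 tested genes higher in FoxO-deficient myeloid progenitors, and 5 higher and 1 lower in WT myeloid progenitors. Cox5a, on chromosome 9, encodes a subunit present in all tissues. It read 1120, 1148 and 1016 in FoxO-deficient myeloid progenitors, 1283, 1247 and 1269 in WT myeloid progenitors, 595, 704 and 678 in FoxO-deficient LSK cells and 742, 858 and 816 in WT LSK cells. The cell types do not overlap, and within each cell type all deficient arrays lay below all WT arrays. Cox5a changed by 0.73 ± 0.14 between the cell types in deficient cells (adjusted p = 0.00468) and by 0.66 ± 0.14 in WT cells (adjusted p = 0.00840).

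Cox4i1, Cox6b1 and Cox8a, the widely expressed forms of their subunits, were called in WT cells (0.59, 0.75 and 0.99). The change of Cox8a, for which array 2 read 99.96 against 216 and 247 on the other WT LSK arrays, was 0.59 without array 2. In deficient cells the 3 genes changed by 0.18, 0.40 and 0.34, with all 3 myeloid progenitor arrays above the LSK arrays. Without array 2, Cox6b1 (0.39) and Cox8a (0.34) were called in deficient cells too. For Cox8a, 1 of the 2 other kept probe sets had the opposite sign in WT cells (-0.95). Cox7a2 and Cox5b, which gave the highest mean intensities of complex IV, changed by 0.20 and 0.26 in deficient cells and by 0.30 and 0.26 in WT cells, none of them called. Cox7a2l, known for its part in joining complexes III and IV, had all FoxO-deficient myeloid progenitor arrays (1420 to 1577) below all FoxO-deficient LSK arrays (1726 to 1950), where the change of -0.29 did not pass the test (adjusted p = 0.275). Without array 2 it was lower in both genotypes (-0.29 in deficient and -0.41 in WT cells).

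**Figure D3:**
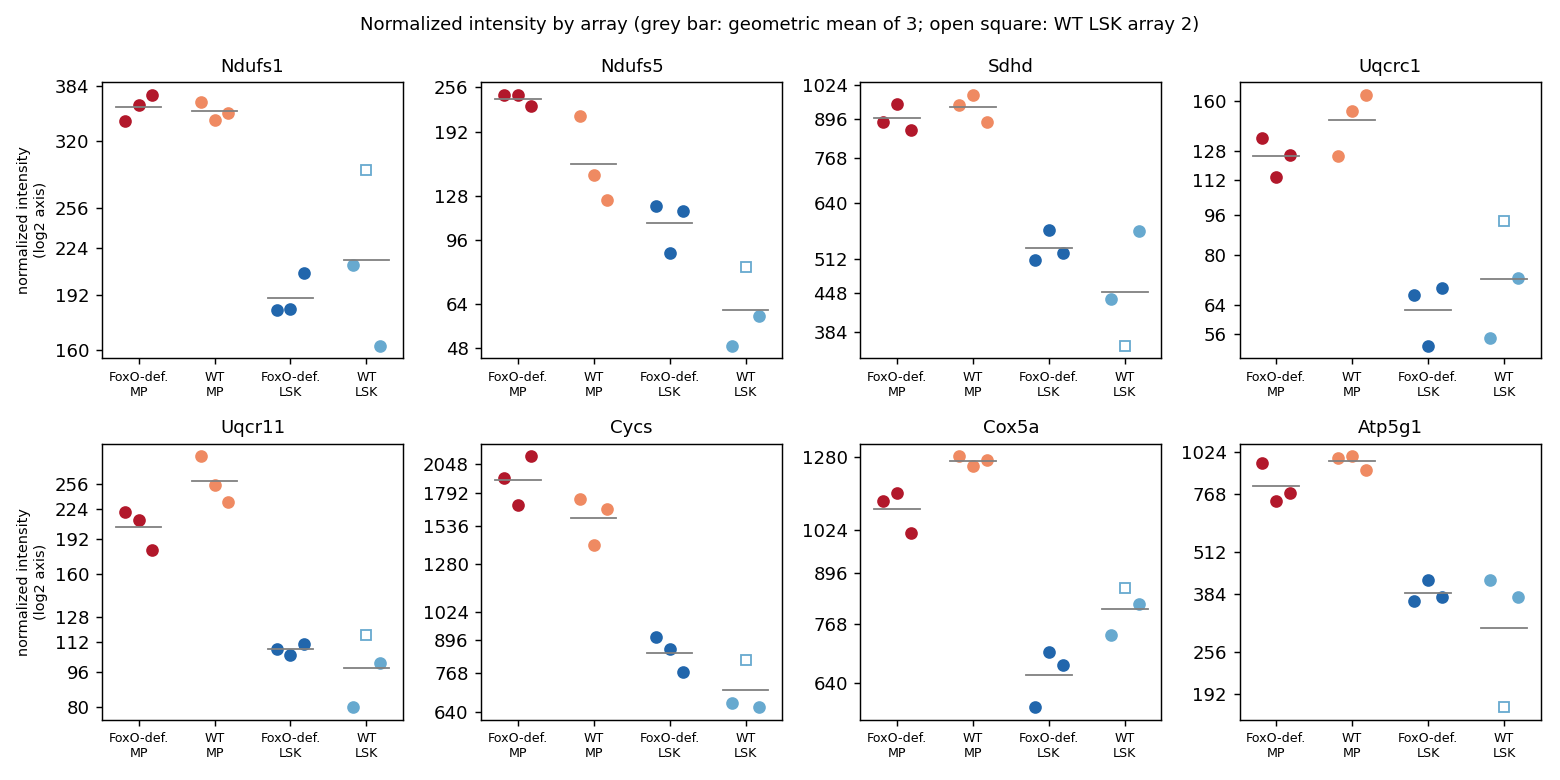
Normalized intensity on a log2 axis of 8 members on each array, by group from left to right FoxO-deficient myeloid progenitors, WT myeloid progenitors, FoxO-deficient LSK and WT LSK, with the geometric mean of 3 arrays as a grey bar and array 2 as an open square. In each panel the myeloid progenitor arrays of a genotype lie above its LSK arrays, as for Cycs, with 1405 to 2127 in myeloid progenitors and 655 to 909 in LSK cells.

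Several complex IV subunits have a second gene used mainly in muscle, lung or testis, and these, with Ndufa4l2, were described by their level against background. The limit on each array was the highest normalized intensity of 27 probe sets for bacterial transcripts, and lay between 5.14 and 13.0. Of the 80 tested members 74 exceeded it on all 12 arrays. Of the 6 that did not, 5 were such isoform genes: Cox7a1 exceeded it on 8 arrays, Cox4i2 and Cox8c on 4, Cox8b on 3 and Ndufa4l2 on 2. The muscle form Cox6a2 and the testis form Cox6b2 exceeded it on all 12.

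Cox8b, a heart and muscle form on chromosome 7, was the only member called for a difference between the FoxO effects of the 2 cell types, in a comparison that called 0.859% of all genes (0.291% higher and 0.568% lower). It read 4.42, 3.73 and 12.6 in FoxO-deficient myeloid progenitors, 2.17, 1.35 and 1.72 in WT myeloid progenitors, 0.983, 1.85 and 2.36 in FoxO-deficient LSK cells and 7.59, 8.95 and 10.1 in WT LSK cells. It exceeded the limit on 1 FoxO-deficient myeloid progenitor array and 2 WT LSK arrays, so these calls set values at background against values just above it. The difference of effects had an adjusted p of 0.0188, and of 0.0132 to 0.171 under 19 other settings. Its fitted size on the log2 scale is set by values below the limit and is no measure of fold: it was 4.23 here, and 0.86 or 0.49, no longer called, with an offset of 16 or 32 added before the log. It was also not called without WT myeloid progenitor array 8 (4.05) or 9 (4.25). It was called lower in WT myeloid progenitors than in WT LSK cells (adjusted p = 0.00589) and higher in FoxO-deficient myeloid progenitors than in FoxO-deficient LSK cells (adjusted p = 0.0193), and no fold is given because the bound is under 1.

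Cox6a2 read 41.4, 43.9 and 37.2 in FoxO-deficient myeloid progenitors, 15.7, 31.4 and 21.3 in WT myeloid progenitors, 14.3, 13.9 and 21.6 in FoxO-deficient LSK cells and 11.9, 14.3 and 9.81 in WT LSK cells. The FoxO-deficient myeloid progenitor arrays stood above all 9 others. It was higher in myeloid progenitors in both genotypes (1.33 ± 0.28, adjusted p = 0.00840 in deficient cells; 0.88 ± 0.28, adjusted p = 0.0491 in WT cells), and its other kept probe set changed by 1.73 and -0.03. Under 21 other settings the deficient call held in 20 and the WT call in 5. Cox6b2 read 347, 264 and 212 in FoxO-deficient myeloid progenitors, 436, 405 and 435 in WT myeloid progenitors, 130, 124 and 149 in FoxO-deficient LSK cells and 92.5, 432 and 140 in WT LSK cells. The 432 is array 2. With all arrays its changes of 1.01 and 1.26 were not called (adjusted p = 0.166 and 0.0831), and without array 2 both passed the test (1.01 in deficient and 1.90 in WT cells). Cox8c, Cox7a1 and Ndufa4l2 were not called in either comparison, and no fold is given for them. Ndufa4, counted with complex I by its name although its product is known as a subunit of complex IV, read 765 to 1097 on all arrays but array 2 (224).

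**Figure D4:**
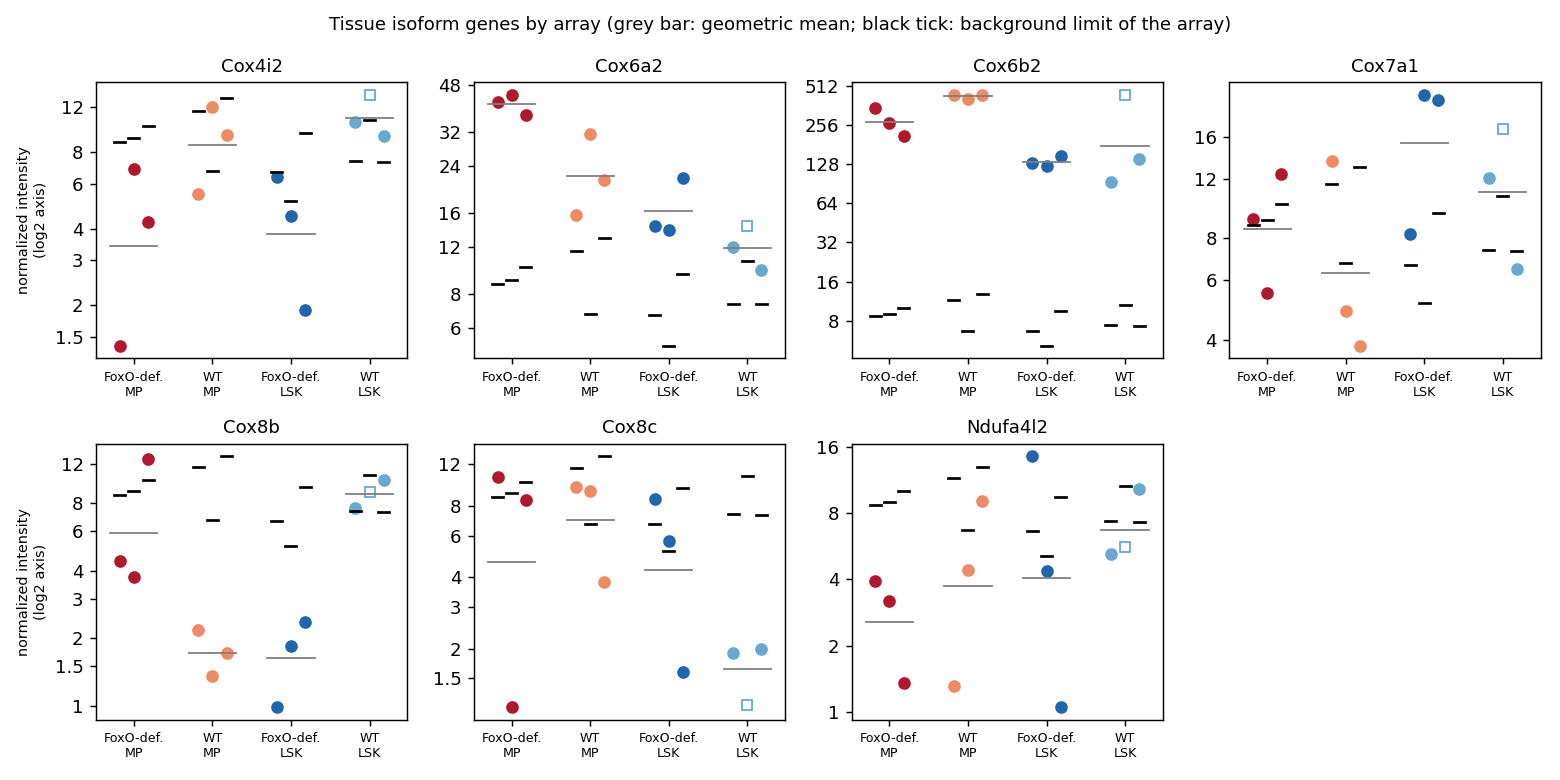
Normalized intensity on a log2 axis of 7 genes of tissue isoforms on each array, with the groups in the order FoxO-deficient myeloid progenitors, WT myeloid progenitors, FoxO-deficient LSK and WT LSK, the geometric mean as a grey bar and the background limit of each array as a black tick. Cox6a2 and Cox6b2 lie above the limit on all 12 arrays, and the other 5 genes do not.

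Complex V, the ATP synthase, had 5 of 17 genes higher in FoxO-deficient and 7 of 17 higher in WT myeloid progenitors. The catalytic head, whose beta subunit holds the sites of ATP synthesis, had 1 of 5 genes called in each genotype. That gene, Atp5b, read 1496, 1360 and 1551 in FoxO-deficient myeloid progenitors, 1474, 1265 and 1552 in WT myeloid progenitors, 935, 963 and 934 in FoxO-deficient LSK cells and 906, 722 and 855 in WT LSK cells. The cell types do not overlap (log2 change 0.64 ± 0.15, adjusted p = 0.0150 in deficient cells; 0.79 ± 0.15, adjusted p = 0.00492 in WT cells). Atp5a1, the alpha subunit that alternates with beta in the head, changed by 0.17 and -0.10, and Atp5c1, the rotating gamma subunit, by 0.23 and 0.16, none of them called.

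The peripheral stalk, which holds the head still, had 2 of 4 genes called in deficient cells (Atp5j 0.92 and Atp5pb 0.60) and 3 of 4 in WT cells (Atp5j 0.86, Atp5pb 0.68 and Atp5o 0.53). Of the other membrane subunits Atp5k was called in both genotypes (0.58 and 0.71) and Atp5l in WT cells (0.80). Without array 2 the WT changes of Atp5j and Atp5l were 0.54 and 0.47. Atp5l (0.35) and Atp5o (0.36) were then called in deficient cells too.

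The rotating c ring is made of 1 protein encoded by 3 genes, which differ in their import sequence. Atp5g1, on chromosome 11, read 948, 729 and 772 in FoxO-deficient myeloid progenitors, 980, 994 and 906 in WT myeloid progenitors, 366, 422 and 375 in FoxO-deficient LSK cells and 422, 175 and 376 in WT LSK cells. It was higher in both genotypes (1.07 ± 0.29, adjusted p = 0.0298 in deficient cells; 1.66 ± 0.29, adjusted p = 0.00334 in WT cells). The WT change was 1.25 without array 2, which gave the 175, and the other kept probe set of Atp5g1 changed by 0.52 in deficient and -0.95 in WT cells.

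Atp5g3 changed by 0.24 and 0.40, and neither value was called. Without array 2 its WT change was called (0.42). Atp5g2 read 1589, 1554 and 1501 in FoxO-deficient myeloid progenitors, 1747, 1594 and 1645 in WT myeloid progenitors, 1655, 1696 and 1684 in FoxO-deficient LSK cells and 1868, 42.2 and 1885 in WT LSK cells. Its WT LSK mean rests on array 2, at 42.2, so its change of 1.65 ± 1.17 in WT cells (adjusted p = 0.364) is set by that array. In deficient cells the change was -0.12, with all myeloid progenitor arrays below all LSK arrays.

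FoxO deficiency changed no member by this test in either cell type. In myeloid progenitors 0 of 80 members were called, where 1.84% of all genes were (0.757% higher and 1.09% lower), and 3 had an unadjusted p under 0.05. In LSK cells 0 of 80 were called, where 0.269% of all genes were (0.124% higher and 0.146% lower), and 4 had an unadjusted p under 0.05. The adjusted p of the members ran from 0.10 to 0.995 in myeloid progenitors and from 0.0913 to 0.986 in LSK cells. The median log2 change was -0.08 in myeloid progenitors (all genes 0.04), with 53 of 80 members below 0, and 0.03 in LSK cells (all genes -0.04), with 37 of 80 below 0.

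The intervals give the range of change that the fit allows, with 1 spread per gene shared by the 4 groups. The median SD of the members was 0.337 in WT LSK cells and 0.0868 to 0.112 in the other groups. The LSK intervals may therefore be too narrow and those of myeloid progenitors too wide. If the spread between arrays is technical, the intervals do not bound the change between mice. In myeloid progenitors the 95% interval lay within a 2-fold change either way for 66 of 80 members, and in LSK cells for 59, and without array 2 for 71 in each. All 4 genes of complex II and all 8 of complex III were within it in both cell types, as were 16 of 17 of complex V in myeloid progenitors and 11 in LSK cells. The 7 genes of tissue isoforms lay outside it in both cell types. Cycs had intervals from -0.11 to 0.63 in myeloid progenitors and from -0.12 to 0.62 in LSK cells.

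**Figure D5:**
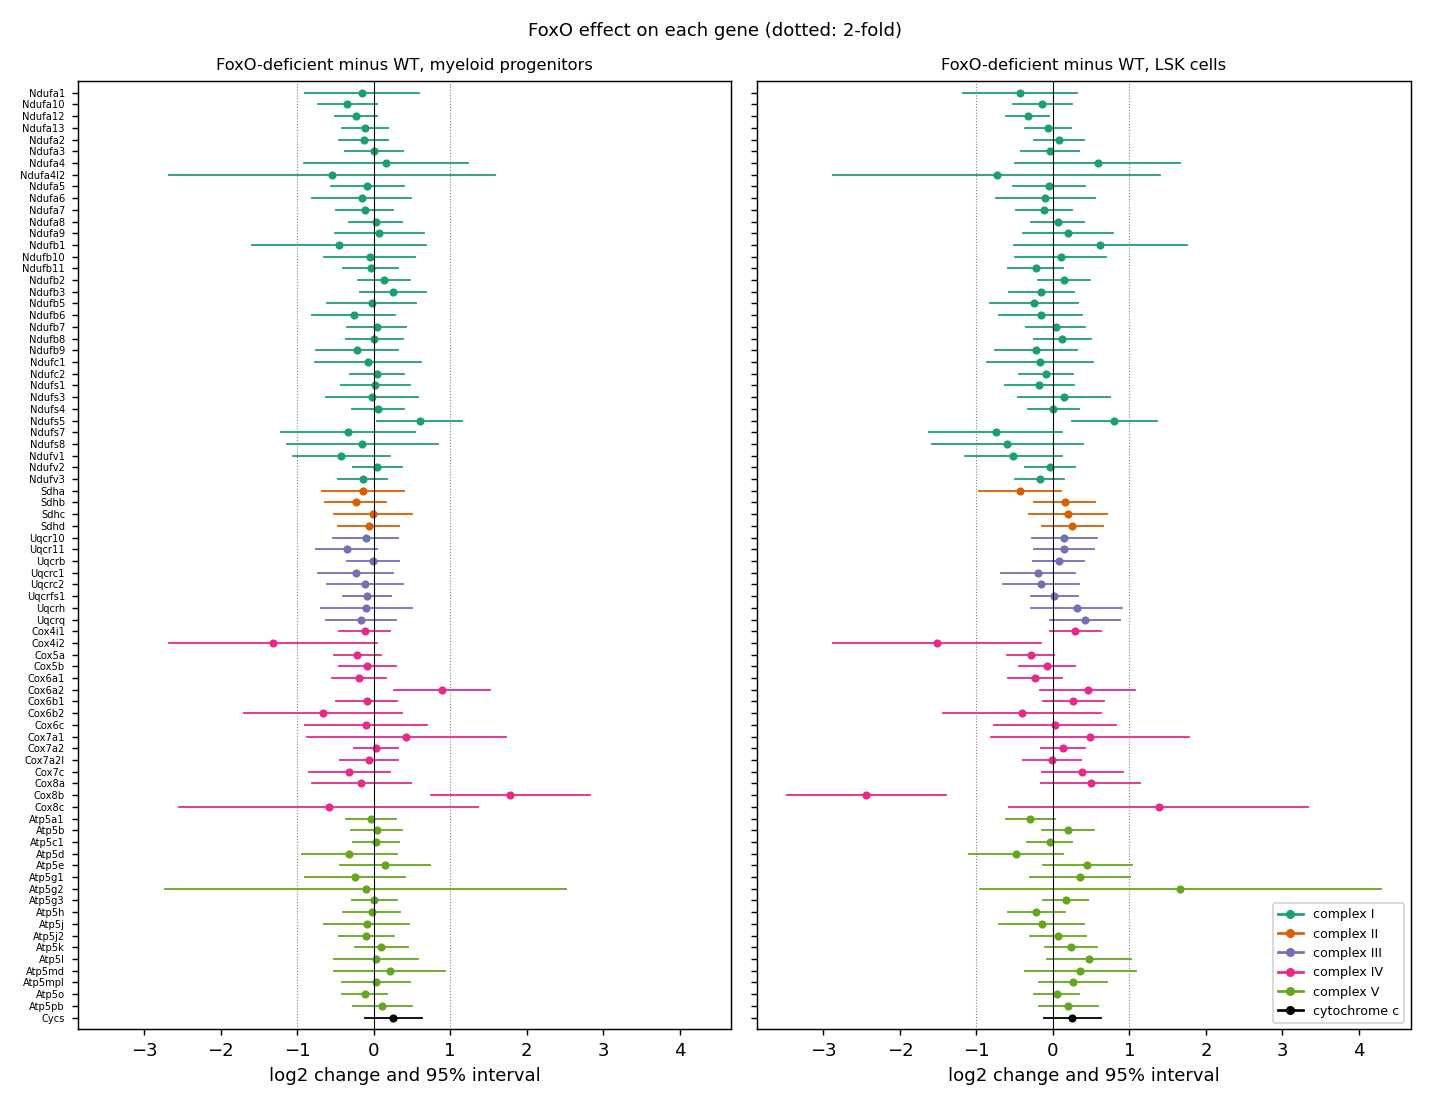
Log2 change between FoxO-deficient and WT cells with its 95% interval for each of the 80 members, coloured by complex, in myeloid progenitors on the left and LSK cells on the right; dotted lines mark a 2-fold change. For 66 members in myeloid progenitors and 59 in LSK cells the interval lies between the dotted lines.

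In myeloid progenitors all 3 deficient arrays lay below all 3 WT arrays for 15 members (18.8%, where 12.6% of all genes did so), and above them for 5 (6.25%, where 18.2% did so). In LSK cells the counts were 7 below (8.75%, where 9.06% of all genes did so) and 5 above (6.25%, where 7.77% did so). Complex III had all 8 changes below 0 in myeloid progenitors (median -0.11) and 6 of 8 above 0 in LSK cells (median 0.11). Complex II had all 4 below 0 in myeloid progenitors and 3 of 4 above 0 in LSK cells. For complex V the median was 0.01 in myeloid progenitors and 0.20 in LSK cells, and for complex I it was -0.06 and -0.09. Array 2 bears on the LSK medians, which without it were 0.04 for complex I, 0.0016 for complex II, 0.12 for complex III, 0.08 for complex IV and 0.04 for complex V. None of these genes was called for a difference between the cell types.

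Ndufs5 was above its WT group on all deficient arrays in both cell types. Its change was 0.60 ± 0.25 in myeloid progenitors (adjusted p = 0.340) and 0.80 ± 0.25 in LSK cells (adjusted p = 0.281). Averaged over both cell types it was 0.70 ± 0.18 (adjusted p = 0.0914), in a comparison that called 0 of 80 members and 1.86% of all genes (0.896% higher and 0.961% lower), with 6 members at an unadjusted p under 0.05. Ndufa12, an accessory subunit of complex I, was below its WT group on all deficient arrays in both cell types, at 1269, 1202 and 1288 against 1402, 1567 and 1445 in myeloid progenitors and at 1043, 1076 and 1067 against 1365, 1350 and 1297 in LSK cells (averaged change -0.28 ± 0.09, adjusted p = 0.189). Cox5a and Ndufs7 also lay below on all deficient arrays in both cell types. Their changes were -0.21 and -0.34 in myeloid progenitors and -0.29 and -0.75 in LSK cells, and neither gene was called. The LSK change of Ndufs7 is enlarged by array 2, which read 2587 against 808 and 764 on the other WT LSK arrays. How many of all genes lay apart in this way in both cell types was not counted.

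Without WT LSK array 2 the averaged FoxO effect was called for 3 members, where 6.93% of all genes were: Ndufs5 (0.80) and Atp5md (0.50), a small membrane subunit of the ATP synthase, were higher and Ndufa12 (-0.27) was lower. In LSK cells Atp5md was then higher (0.80), where 0.989% of all genes were called, and in myeloid progenitors 0 of 80 members were called, where 8.88% of all genes were, with 11 members at an unadjusted p under 0.05. Atp5md read 1331, 1172 and 1079 in FoxO-deficient LSK cells and 661, 1735 and 699.6 in WT LSK cells, array 2 being the 1735.

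Dim isoform genes are described by their values and bounds. Cox4i2, the lung form of the subunit that Cox4i1 encodes, read 1.39, 6.83 and 4.24 in FoxO-deficient myeloid progenitors, 5.44, 12.0 and 9.32 in WT myeloid progenitors, 6.40, 4.46 and 1.92 in FoxO-deficient LSK cells and 10.5, 13.4 and 9.22 in WT LSK cells. No deficient array exceeded the background limit. By the bound the FoxO-deficient LSK mean lay at least 1.58-fold below the WT LSK mean, but the change did not pass the test (limma, adjusted p = 0.40). In myeloid progenitors the bound of Cox4i2 is under 1. Cox6a2 was higher on all deficient arrays in myeloid progenitors (0.90 ± 0.28, adjusted p = 0.180). Cox8b has a bound under 1 in myeloid progenitors (limma, adjusted p = 0.10). By the bound its FoxO-deficient LSK mean lay at least 1.28-fold below the WT LSK mean, but this change did not pass the test either (adjusted p = 0.0913).

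Genes that build and feed the chain were taken as lists beside the members. Of 49 tested assembly factors 11 were higher and 1 was lower in FoxO-deficient myeloid progenitors than in FoxO-deficient LSK cells, and 9 were higher in WT myeloid progenitors than in WT LSK cells. These are 22.4% and 18.4% of the list called higher, where 10.2% and 9.95% of all genes were, and 2.04% called lower in deficient cells, where 9.39% of all genes were. Without array 2, 26 and 24 were higher and 2 and 2 lower in deficient and WT cells, where 22.3% and 18.4% of all genes were higher, and the number higher fell to as few as 5 in each with another array left out. The complex I assembly factors Ndufaf1 (1.20 and 1.10), Ndufaf3 (1.28 and 1.56) and Ndufaf7 (1.17 and 0.66) were called in both genotypes, as were Coa3 (0.72 and 0.80) and Cox11 (0.93 and 0.78) of complex IV and Lrpprc (0.93 and 1.12), which stabilises mitochondrial messenger RNA. Cox15, Slirp, Surf1, Tmem126b and Uqcc1 were higher in deficient cells (0.53 to 1.62), and Coa5, Cox10 and Uqcc2 in WT cells (0.75 to 0.99). Ttc19, a factor for complex III, was lower in FoxO-deficient myeloid progenitors, at 127 against 421 in FoxO-deficient LSK cells (-1.73 ± 0.27, adjusted p = 0.00162).

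Of 17 genes of the citric acid cycle and pyruvate dehydrogenase, 4 (23.5%) were higher in FoxO-deficient and 6 (35.3%) in WT myeloid progenitors. Of all genes 10.2% and 9.95% were. Without array 2 the counts were 9 and 11, where 22.3% and 18.4% of all genes were higher. Dlst, of the oxoglutarate dehydrogenase complex, averaged 240 in FoxO-deficient and 324 in WT myeloid progenitors, and 108 in FoxO-deficient and 103 in WT LSK cells (1.16 ± 0.22 and 1.66 ± 0.22). Dld, Fh1 and Pdhx were also called in both genotypes, and Dlat and Pdha1 in WT cells.

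Of 22 regulators of mitochondrial biogenesis and maintenance, 4 were higher and 1 lower in FoxO-deficient myeloid progenitors, and 3 higher and 1 lower in WT myeloid progenitors. The shares called higher, 18.2% and 13.6%, stand beside 10.2% and 9.95% of all genes. The share called lower, 4.55% in each, stands beside 9.39% and 11.5%, so on 12 arrays these counts are near the background. Without array 2, 12 of 22 were higher in deficient cells, where 22.3% of all genes were, and 6 in WT cells, where 18.4% were. Then 2 were lower in each, where 16.1% and 16.6% of all genes were. With another array left out, as few as 2 and 1 were higher. Tefm, a mitochondrial transcription elongation factor, was higher in both (1.12 and 1.30). Ppargc1a, the coactivator PGC-1alpha, was lower in both, averaging 4.27 and 6.28 in FoxO-deficient and WT myeloid progenitors and 31.5 and 43.8 in FoxO-deficient and WT LSK cells (adjusted p = 0.0162 in deficient and 0.0182 in WT cells). It exceeded the background limit on 7 of 12 arrays, and no fold is given. Gabpa, a subunit of the GABP factor, and the mitochondrial DNA polymerase gene Polg were higher in WT myeloid progenitors (1.11 and 0.60). Myc, Mterf1a and Pprc1 were higher in FoxO-deficient ones (1.49, 0.99 and 0.68).

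Of 13 uncoupling and carrier genes, Vdac2 alone was called, in FoxO-deficient cells (0.60). Without array 2, 3 were higher in each genotype, where 22.3% of all genes in deficient and 18.4% in WT cells were. In WT cells 1 was then lower, where 16.6% of all genes were. In the FoxO comparisons on 12 arrays Myc was the only gene of these 4 lists that was called. It averaged 328 in FoxO-deficient and 163 in WT myeloid progenitors (1.01 ± 0.18, adjusted p = 0.0191), and 116 in FoxO-deficient and 158 in WT LSK cells. The difference of its FoxO effects, 1.45 ± 0.25, was called (adjusted p = 0.0291). Of all genes 1.84% were called in myeloid progenitors and 0.859% for the difference. Without array 2, 3 biogenesis regulators were higher and 1 assembly factor lower in myeloid progenitors (8.88% of all genes called). For the difference 1 regulator was higher and 1 assembly factor lower (3.51%). Averaged over both cell types, 1 regulator was higher, and 3 assembly factors and 1 carrier gene were lower (6.93%).

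Marker lists of 4 cell types moved between the same groups as the members. Summed over its 9 genes, the HSC list read 1724 to 1900 in FoxO-deficient and 1502 to 1650 in WT myeloid progenitors, and 6278 to 6761 in FoxO-deficient and 6743 to 7159 in WT LSK cells. The 7 erythroid genes read 9221 to 9553 in FoxO-deficient and 10919 to 11679 in WT myeloid progenitors, and 4377 to 4611 in FoxO-deficient and 3093 to 4771 in WT LSK cells. The 7 granulocyte-monocyte genes read 14153 to 14914 in FoxO-deficient and 11616 to 12359 in WT myeloid progenitors, and 3911 to 4272 in FoxO-deficient and 3175 to 4368 in WT LSK cells. The 4 basophil and mast cell genes, of which 3 were called higher in FoxO-deficient and 4 in WT myeloid progenitors, read 809.9 to 854 in FoxO-deficient and 489.6 to 585 in WT myeloid progenitors, and 226 to 275 in FoxO-deficient and 55.6 to 171 in WT LSK cells. With FoxO deficiency 1 of these 4 was called higher in LSK cells (Mcpt8) and 2 of 4 averaged over both cell types (Mcpt8 and Fcer1a). Other lists had FoxO calls as well. Of the 9 HSC genes 1 was lower in each cell type and 2 were lower averaged over both. Of the 7 erythroid genes 1 was lower in LSK cells and 2 averaged. In myeloid progenitors 1 of 7 granulocyte-monocyte genes was higher and 1 of 2 B cell genes lower. Of all genes 0.269% were called in LSK cells, 1.84% in myeloid progenitors and 1.86% averaged. Between the cell types Nkg7 alone of the 3 T and NK cell genes was called, in both genotypes. Of the 4 megakaryocyte genes none was called in deficient cells and 1 was higher in WT cells; of the 2 B cell genes 1 was lower in deficient cells, and of the 4 stroma and endothelium genes 1 was lower in WT cells. Without array 2 more FoxO calls were made in the 4 lists. The basophil and mast cell list had 3 higher in LSK cells, 2 in myeloid progenitors and 4 averaged. The erythroid list had 1, 3 and 3 lower, in that order. The HSC list had 1, 2 and 2 lower, and 1 higher in myeloid progenitors. The granulocyte-monocyte list had 1, 3 and 3 higher, and 1 lower in LSK cells. Of all genes 0.989%, 8.88% and 6.93% were called. The part of these marker changes in the members' values was not tested.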

How the data were processed

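Per the labels, RNA of sorted cells from pooled mice was amplified and biotin-labelled with the NuGEN Ovation system and hybridized to 12 arrays. The authors deposited linear intensities, 1 for each of 45101 probe sets, not brought to a common distribution, with the summarising software not given in the sources used here. Array means ran from 118.9 to 190.2. From them log2(intensity + 0.6) was quantile normalized, 0.6 being the 10th percentile of all values. Values in the text are normalized intensities and group means are geometric. Probe sets above the 40th percentile of their array on at least 3 arrays were kept, and each gene stands for its brightest kept probe set. Limma 3.58.1 in R 4.3.3 fitted 4 group means to 12 arrays (8 residual degrees of freedom). Contrasts were tested two-sided with Benjamini-Hochberg adjustment over 13732 genes and called at an adjusted p under 0.05. Log2 changes carry standard errors of the fit. Intensities of different genes are not comparable. A bound ("at least") divides the mean of the brighter group by the higher of the background limit and the gene's own value on each dimmer array. It describes the means and carries no sampling error. The number of arrays limits precision.

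Members, lists and named genes (those called, the brightest, the most changed, tissue isoforms and core subunits) were chosen with earlier results of these data known. The scripts were tested on simulated data. Alternatives were offsets of 16 and 32, median scaling, other filters, other probe set rules, array weights, only the groups compared, and leaving out each array. Motif searches used Python.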

Additional observations from a re-analysis of the deposited data

Results flagged for a closer look

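For Cox8b the FoxO effect differed between the cell types by the test of the difference itself, 4.23 on the log2 scale, a fitted size set by values below or just above the background limit and no measure of fold. For Cox4i1 the difference of the FoxO effects was -0.408: all deficient arrays lay below the WT arrays in myeloid progenitors, at 1374, 1312 and 1269 against 1454, 1429 and 1400, and above them in LSK cells, at 1150, 1195 and 1150 against 894, 843 and 1142. That difference did not pass the test (limma, adjusted p = 0.551).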

How the results depend on the processing

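No called gene changed direction under the alternatives tried; the median FoxO change in LSK cells, 0.03, ran from -0.0041 to 0.08 leaving out an array. In the WT comparison of cell types, 19 members were called with no filter, 47 with array weights, 5 with only the groups compared and 14 to 52 leaving out an array, and the median change was 0.78 with median scaling and 0.39 to 0.49 leaving out an array. In the deficient comparison 37 were called with median scaling, 50 with array weights, 37 with only the groups compared and 7 to 48 leaving out an array, and the median was 0.69 with median scaling. The share of all genes called moves as well. It was 21.4% in WT and 19.6% in deficient cells on 12 arrays, and 34.9% and 38.4% without array 2. The shares of the other settings are not given, so the counts in this section are not set against all genes. Median scaling also moves the median of all genes, to 0.19 in WT and 0.31 in deficient cells, so the members stood 0.60 and 0.38 above it, and 0.46 and 0.25 above it with quantile normalization. For the difference of the FoxO effects, 0 members were called with an offset of 16, an offset of 32 or the 60th percentile filter and 0 to 1 leaving out an array, and the median was -0.12 with the mean of probe sets. For the averaged FoxO effect 1 member was called with an offset of 16, 2 with an offset of 32, 1 with the 60th percentile filter, 3 with array weights and 0 to 3 leaving out an array. The FoxO effect was called for 1 member in myeloid progenitors with array weights, and for 0 to 1 in LSK cells leaving out an array (1 without WT LSK array 2 or FoxO-deficient myeloid progenitor array 12). The causes were not tested. No paired analysis was possible because array numbers are not shared between groups.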
